A study of Mus musculus with 35 samples.

Results

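Forebrain microglia of 9-week-old mice homozygous for a LacZ allele of Il34 (Il34Lacz/Lacz) were compared with forebrain microglia of Il34wt/wt mice of the same age. The comparison took the 3 LacZ/LacZ and the 3 wild-type libraries of 1 deposited table, 6 of the series' 35 libraries, and every gene of that table, 8622 in all. The whole series covers 12 groups of sorted mouse microglia, from cerebellum or forebrain, from Il34 or Csf1 mutants and their controls, and the design text calls the libraries of a group biological replicates. The values were set beside 2 further comparisons at 9 weeks: Il34Lacz/Lacz against Il34wt/wt in cerebellum (2 and 2 libraries), and NesCre Csf1fl/fl against Csf1fl/fl in forebrain (4 and 3 libraries), in which the Nestin promoter drives Cre in the neural lineage. The labels name no further allele or agent in any of these groups.

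Microglia are the resident macrophages of the brain, and they depend on the receptor CSF1R. CSF1R has a pair of ligands, CSF1 and IL-34. In the mouse brain, IL-34 is made mainly by neurons and is the more abundant ligand in much of the forebrain, whereas CSF1 is prominent in the cerebellum and in white matter. Binding of either ligand starts kinase signalling that keeps microglia alive and sustains their tissue-specific program.

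Values are the authors' normalised read counts, which in each library equal whole reads scaled by 1 factor, plus 0.1. Each library held between 551909 (wild type 1) and 873167 (wild type 3) reads in the genes of the table. Correlations of log2 values lay between 0.903 and 0.932 among wild-type libraries, between 0.925 and 0.935 among LacZ/LacZ libraries and between 0.899 and 0.927 across the groups. The allele itself could not be checked, since Il34 is not among the genes of the table. The microglial label held up against its markers: Csf1r averaged 10386 ± 827 and 9704 ± 753 (wild type and LacZ/LacZ, SD, n = 3 each), the fractalkine receptor Cx3cr1 5237 ± 628 and 5023 ± 348 and the purinergic receptor P2ry12 6375 ± 945 and 4586 ± 350.1. Levels are not per transcript length, so genes are not ranked against each other.

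Few genes passed the test, and more of them were higher than lower in LacZ/LacZ. Of 8622 genes, 15 passed an adjusted p of 0.05 in limma (0.174%), of which 10 rose (0.116%) and 5 fell (0.058%) in LacZ/LacZ. Every gene of the table exceeds 10 in all libraries of at least 1 genotype. Itm2a, Enpp2, Cldn5, Slco1c1 and Ly9 meet this only in LacZ/LacZ, and Adcy8 only in wild type. The direction of these calls is therefore tied to that filter. Without adjustment, 636 genes were under 0.05 (7.38%), 317 of them higher (3.68%) and 319 lower (3.7%). All 3 LacZ/LacZ libraries lay above all 3 wild-type libraries in 544 genes (6.31%) and below them in 584 (6.77%). The median log2 change of all genes was -0.01. On simulated data the same test recovered 8% of 1.5-fold and 48% of 2-fold changes, so a gene not called may still have changed.

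**Figure D1:**
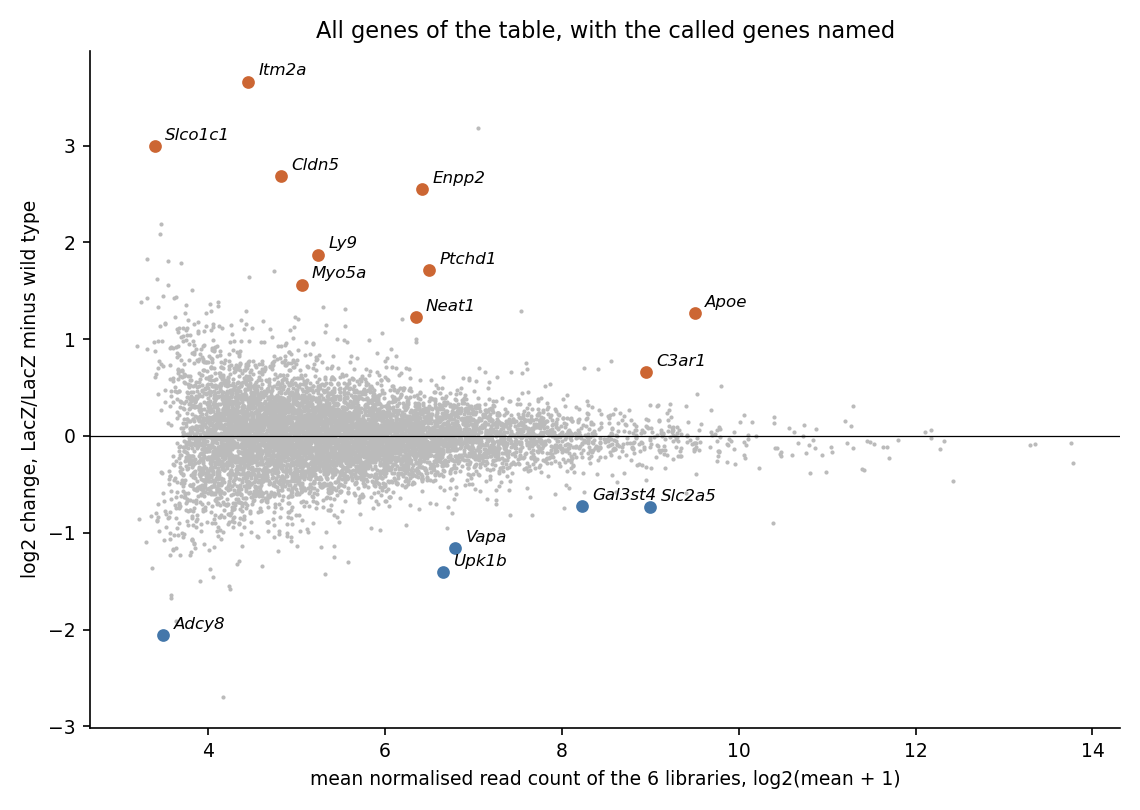
Log2 change (LacZ/LacZ minus wild type) of all 8622 genes against the log2 of the mean normalised read count plus 1; grey points did not pass the test, orange points rose and blue points fell. Slco1c1 and Adcy8 lie at the low end of the levels and Apoe has the highest level of the called genes; the isolated grey point above 3 is Ttr, which did not pass in limma.

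Among the genes that rose, several have known roles in microglia and other leukocytes, and Apoe (GRCm38 chr7:19696109-19699188, minus strand) had the highest read count. It encodes apolipoprotein E, the lipid carrier of brain lipoproteins, and belongs to the disease-associated program of microglia. Its normalised read counts were 303, 423 and 579 in wild type and 1004, 1006 and 1034 in LacZ/LacZ. The groups did not overlap, and the LacZ/LacZ libraries lay within a narrow band while the wild-type libraries spread widely (log2 change 1.27 ± 0.16 SE, limma adjusted p = 8.8e-05; 2.41-fold, 95% interval of the log2 change 0.94 to 1.60). Apoe kept its call in every alternative run.

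Ptchd1 (chrX:155573455-155623814, minus strand), a Patched-domain membrane protein whose human counterpart is linked to intellectual disability and autism, had counts of 45.3, 38.7 and 39.3 in wild type and 117, 136 and 161 in LacZ/LacZ. Every LacZ/LacZ library was more than double the highest wild-type library (log2 change 1.71 ± 0.21 SE, limma adjusted p = 8.8e-05). It too kept its call in every alternative run. An antisense gene, Gm15156, overlaps its exons, and without a known strand setting the reads of the pair cannot be told apart.

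C3ar1 (chr6:122847138-122856161, minus strand), the receptor for the complement fragment C3a, stood at 367, 429 and 357 in wild type and 576, 625 and 616 in LacZ/LacZ. The groups were well apart and the replicates close (log2 change 0.66 ± 0.13 SE, limma adjusted p = 0.0193). Ly9 (chr1:171588624-171607410, minus strand), a SLAM family receptor of leukocytes, had 17.9, 22.7 and 7.56 in wild type and 50.01, 74.2 and 48.4 in LacZ/LacZ. Its groups did not overlap either, although wild type 3 was far below the other wild-type libraries (log2 change 1.87 ± 0.35 SE, limma adjusted p = 0.0165). Ly9 is in the table only because every LacZ/LacZ library exceeds 10. C3ar1 lost its call when wild type 2 or any LacZ/LacZ library was left out (adjusted p up to 0.191), and Ly9 when any LacZ/LacZ library was left out (up to 0.222).

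Myo5a (chr9:75071015-75223688, plus strand), an actin-based motor that carries organelles, was read at 15.2, 21.8 and 11.3 in wild type and 42.7, 57.8 and 44.5 in LacZ/LacZ (log2 change 1.56 ± 0.32 SE, limma adjusted p = 0.0323). Neat1 (chr19:5824708-5845478, minus strand), the long non-coding RNA that scaffolds nuclear paraspeckles, was read at 61.8, 46.3 and 35.5 in wild type and 92.6, 104 and 141 in LacZ/LacZ (log2 change 1.23 ± 0.23 SE, limma adjusted p = 0.0165). Neither gene's groups overlapped. Gm27505, Gm27533 and Gm28006 overlap Neat1 exons on the same strand, so reads of Neat1 cannot be assigned with certainty. Myo5a lost its call in every run with 1 library left out except that without wild type 1 (adjusted p up to 0.288) and Neat1 without wild type 2, LacZ/LacZ 2 or LacZ/LacZ 3 (up to 0.191).

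The 5 genes that fell include a sugar transporter typical of microglia. Upk1b (chr16:38773184-38800328, minus strand), a tetraspanin known from the bladder lining, had counts of 128, 142 and 164 in wild type and 41.7, 53.99 and 68.6 in LacZ/LacZ. The groups were far apart, with every wild-type library close to double the highest LacZ/LacZ library or above (log2 change -1.41 ± 0.21 SE, limma adjusted p = 0.000949), and the call held in every alternative run. Slc2a5 (chr4:150119283-150144169, plus strand), the fructose transporter GLUT5, which in brain is characteristic of microglia, had 556, 746 and 616 in wild type and 322, 427 and 399.7 in LacZ/LacZ. Every LacZ/LacZ library was below every wild-type library (log2 change -0.74 ± 0.14 SE, limma adjusted p = 0.0187).

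Gal3st4 (chr5:138264921-138272840, minus strand), a sulfotransferase that adds sulfate to galactose, had 349, 360.1 and 406 in wild type and 212, 250.3 and 213 in LacZ/LacZ, with no overlap (log2 change -0.72 ± 0.14 SE, limma adjusted p = 0.0193). Its antisense neighbour 6330418K02Rik, which shares exon sequence, had 115, 125 and 150.3 in wild type and 78.1, 73.2 and 81.2 in LacZ/LacZ and missed the threshold (log2 change -0.73 ± 0.18 SE, limma adjusted p = 0.108). With the strand setting not given in the sources used here, reads of this pair, and of Gm43720 on the same strand, cannot be assigned with certainty. Both Slc2a5 and Gal3st4 lost their calls when wild type 2 or any LacZ/LacZ library was left out (adjusted p up to 0.31 and 0.148).

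Adcy8 (chr15:64697084-64922296, minus strand), a calcium-stimulated adenylyl cyclase that makes cyclic AMP, was read at 19.3, 19.9 and 12.2 in wild type and 2.18, 3.95 and 3.96 in LacZ/LacZ. The LacZ/LacZ libraries held 10 reads of it in all and the wild-type libraries 48 (log2 change -2.06 ± 0.42 SE, limma adjusted p = 0.0323), and DESeq2 did not call it (0.163), nor did limma with 1 library left out, except without wild type 3 (up to 0.307). Adcy8 is in the table only because every wild-type library exceeds a normalised count of 10. Vapa (chr17:65578327-65613555, minus strand), an endoplasmic reticulum protein of membrane contact sites, had 181, 195 and 86.9 in wild type and 72.9, 58.8 and 62.8 in LacZ/LacZ. Here wild type 3 was just above the highest LacZ/LacZ library while the other wild-type libraries were far above (log2 change -1.16 ± 0.24 SE, limma adjusted p = 0.032). The Vapa call was lost under quantile normalization, under a minimum mean of 50 and in every run with 1 library left out except that without wild type 3 (adjusted p up to 0.354).

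**Figure D2:**
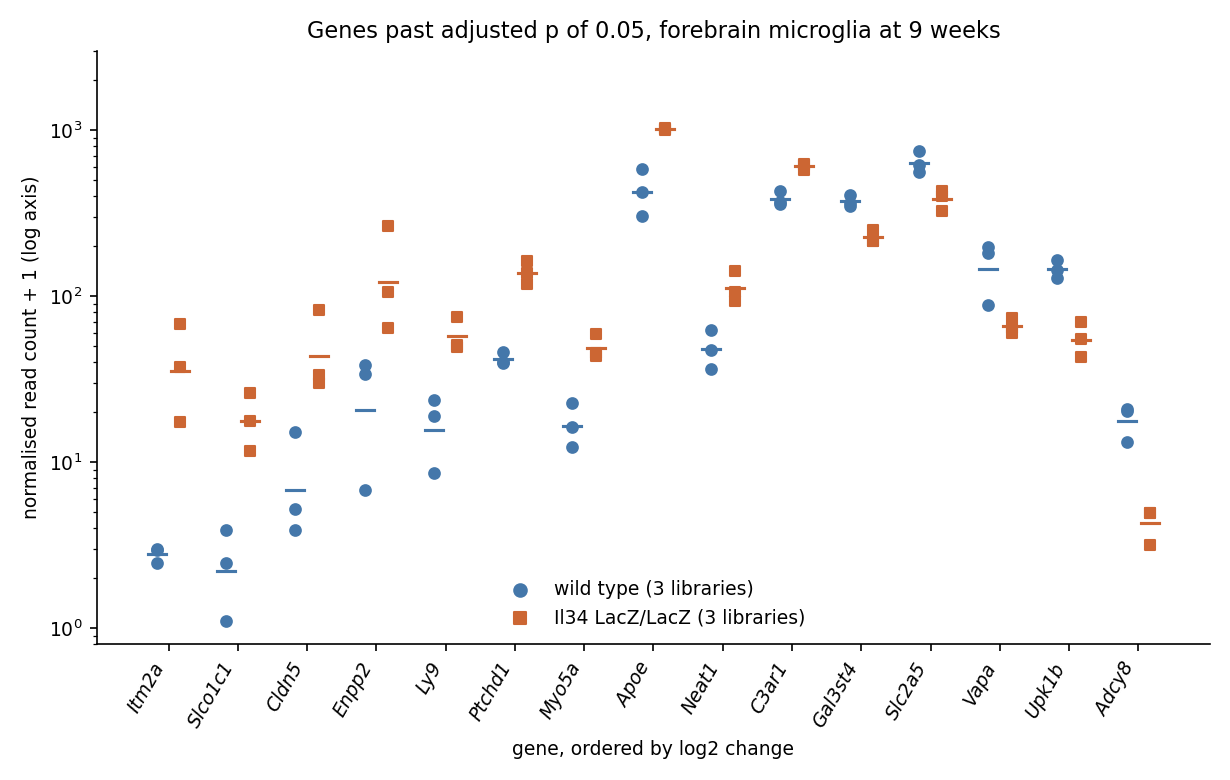
Normalised read count plus 1 (log axis) of the 15 called genes in each library, with the geometric mean of the 3 libraries as a bar. For all 15 genes, which were picked by the test on these same libraries, the orange LacZ/LacZ squares and the blue wild-type circles do not overlap. Over all genes, 6.31% lie wholly above and 6.77% wholly below wild type. Apoe in LacZ/LacZ is the tightest cluster, from 1004 to 1034.

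The promoters of Apoe and C3ar1, which rose, and of Slc2a5, which fell, are shown because these 3 called genes are the ones best known from microglia; they were chosen after their values were seen. Each window runs from 250 bases before to 50 bases after a RefSeq transcription start on GRCm38.p6, and 9 of the 15 called genes matched a window; for Apoe the RefSeq start nearest the GENCODE gene start was taken. Capitals mark the 6 letters GAGGAA or their reverse complement, the core bound by PU.1, the ETS factor that defines macrophages.
Apoe (chr7:19699139-19699438, minus strand): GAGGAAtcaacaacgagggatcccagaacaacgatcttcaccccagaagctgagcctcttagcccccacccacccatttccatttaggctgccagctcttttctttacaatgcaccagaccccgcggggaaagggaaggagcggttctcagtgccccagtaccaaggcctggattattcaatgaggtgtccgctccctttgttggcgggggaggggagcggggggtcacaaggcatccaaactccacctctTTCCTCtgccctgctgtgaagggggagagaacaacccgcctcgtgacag
C3ar1 (chr6:122856108-122856407, minus strand): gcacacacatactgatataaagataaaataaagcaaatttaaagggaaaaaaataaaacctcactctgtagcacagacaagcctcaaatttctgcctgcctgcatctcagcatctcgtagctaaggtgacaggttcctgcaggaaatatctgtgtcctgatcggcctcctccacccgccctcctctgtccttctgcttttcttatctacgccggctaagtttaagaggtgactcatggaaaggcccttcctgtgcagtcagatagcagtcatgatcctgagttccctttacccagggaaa
Slc2a5 (chr4:150119094-150119393, plus strand): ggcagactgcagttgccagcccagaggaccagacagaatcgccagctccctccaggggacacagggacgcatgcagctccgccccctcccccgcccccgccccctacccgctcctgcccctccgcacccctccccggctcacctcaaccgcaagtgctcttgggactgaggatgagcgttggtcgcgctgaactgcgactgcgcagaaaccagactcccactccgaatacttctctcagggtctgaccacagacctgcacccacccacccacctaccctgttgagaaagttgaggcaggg
The Apoe window holds 2 matches, at its 5′ end on the printed strand and just past the start on the opposite strand, and the C3ar1 and Slc2a5 windows hold 0. Of 32851 RefSeq windows of this length, 28.3% hold at least 1 match on either strand. A match is a string of letters and not a measured site.

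The remaining 4 genes that rose are better known from other cells of the brain. Itm2a (chrX:107397099-107403376, minus strand), a membrane protein enriched in brain endothelium and T cells, had 1.47, 1.98 and 1.97 in wild type and 36.5, 16.5 and 66.7 in LacZ/LacZ. The wild-type libraries held 5 reads of it in all against 121 in LacZ/LacZ, a depth-adjusted ratio of 22.8 with a 95% counting interval of 9.51 to 71.5 (log2 change 3.66 ± 0.46 SE, limma adjusted p = 8.8e-05). Cldn5 (chr16:18776847-18778262, plus strand), the claudin of brain endothelial tight junctions, had 4.21, 2.93 and 14.1 in wild type and 32.3, 28.97 and 81.2 in LacZ/LacZ (log2 change 2.68 ± 0.46 SE, limma adjusted p = 0.00735). Slco1c1 (chr6:141524368-141570177, plus strand), a thyroid hormone transporter of the blood-brain barrier, had 1.47, 2.93 and 0.1 in wild type and 16.7, 10.7 and 25.2 in LacZ/LacZ, with 4 wild-type reads in all and a ratio of 12.5 (95% counting interval 4.60 to 47.5; log2 change 3.00 ± 0.50 SE, limma adjusted p = 0.00507). All 3 genes had groups without overlap. The mean of Slco1c1 was under 20, and it is named here because its call was seen.

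Enpp2 (chr15:54838901-54952892, minus strand), or autotaxin, the secreted enzyme that makes lysophosphatidic acid and a product of the choroid plexus, had 32.98, 5.75 and 37.4 in wild type and 104, 264 and 62.8 in LacZ/LacZ. The groups did not overlap, but within each group the libraries were far apart, with wild type 2 much the lowest and LacZ/LacZ 2 much the highest (log2 change 2.55 ± 0.47 SE, limma adjusted p = 0.0148). DESeq2 did not call it (0.499), nor did limma without wild type 2 or without LacZ/LacZ 2 (up to 0.263). Gm26684 overlaps Enpp2 exons on the opposite strand, and without a known strand setting the reads of this pair cannot be told apart. Itm2a kept its call in every alternative in which it was tested. Cldn5 lost its call without wild type 2 or LacZ/LacZ 3, and Slco1c1 without LacZ/LacZ 3 (adjusted p up to 0.148 for each).

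Other markers of endothelial and mural cells were read beside these. Of 18 listed, 5 were in the table, and Cldn5 and Itm2a passed. The angiogenic receptor Kdr had 30.2, 19.9 and 12.2 in wild type and 20.9, 11.6 and 40.6 in LacZ/LacZ (limma adjusted p = 0.978). The adhesion molecule Pecam1 had 35.7, 34.03 and 22.5 in wild type and 19.9, 42.4 and 42.6 in LacZ/LacZ (0.972). The glycoprotein Bsg, which many cells carry, had 191, 201 and 214 in wild type and 207, 217 and 259.7 in LacZ/LacZ (0.87). Groups overlapped for Kdr, Pecam1 and Bsg. The summed level of the 5 ran from 259 to 264 in wild type and from 316 to 490 in LacZ/LacZ. Cldn5 and Itm2a are in the table only because every LacZ/LacZ library exceeds 10, and the 3 markers that were not called summed to 248 to 256 in wild type and 247 to 343 in LacZ/LacZ, which overlap. Cdh5, Tek and Flt1, which define endothelium, and the pericyte markers Pdgfrb and Rgs5 are not among the genes of the table.

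A further list of brain endothelium was written after the data were seen; 6 of its 18 genes were measured, and 1, Slco1c1, was called in limma. Cav2, a caveolin, had 5.58, 5.75 and 2.90 in wild type and 27.1, 17.4 and 12.6 in LacZ/LacZ (limma adjusted p = 0.0771). The receptor phosphatase Ptprb had 9.69, 18.9 and 3.83 in wild type and 37.5, 22.2 and 33.9 in LacZ/LacZ (0.134). Both were higher in every LacZ/LacZ library, and edgeR called Cav2 (adjusted p = 0.0403). The transforming growth factor co-receptor Eng went the other way without passing, at 197, 221 and 298 in wild type and 162, 214 and 199.9 in LacZ/LacZ. The summed level of the 6 was 251 to 329 in wild type and 280 to 306 in LacZ/LacZ, where Eng carries most of the sum. Slco1c1, Cav2, Ptprb and Gpr116 are in the table only through the LacZ/LacZ libraries.

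Of 15 choroid plexus genes, also listed after seeing the data, 3 were measured. Transthyretin, Ttr, the thyroid hormone carrier that choroid plexus secretes, had 37.1, 1.04 and 96.2 in wild type and 197, 383 and 73.5 in LacZ/LacZ. The library order resembled that of Enpp2: wild type 2 was lowest for both genes and LacZ/LacZ 2 highest. The Ttr groups overlapped, and it passed in edgeR (adjusted p = 0.0325) but not in limma (0.0771) or DESeq2 (0.999). Prlr, the prolactin receptor, was at 59.01, 35.9 and 27.2 in wild type and 40.6, 40.5 and 33.9 in LacZ/LacZ. The summed level of the 3 genes was 42.4 to 160.4 in wild type and 169.9 to 687 in LacZ/LacZ. Enpp2 and Ttr are in the table only through the LacZ/LacZ libraries, and without Enpp2 the sums were 36.8 to 123 and 107 to 423, which overlap.

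Markers of further cell types held no call. None of 8 erythroid markers was measured, and of the border macrophage (4 of 16 measured), monocyte (3 of 13), neutrophil (2 of 14), lymphocyte (2 of 18), astrocyte (4 of 14), neuron (2 of 16) and oligodendrocyte (4 of 15) markers, limma and edgeR called 0 in every list. Over these 7 lists, 4 members were higher and 2 lower at an unadjusted p under 0.05, against 3.68% and 3.7% of all genes. Mrc1, the mannose receptor of border macrophages, had 28.9, 28.4 and 29.02 in wild type and 60.4, 86.7 and 37.7 in LacZ/LacZ (log2 change 1.00 ± 0.29 SE, limma adjusted p = 0.222), above wild type in every LacZ/LacZ library. Stab1, another border macrophage marker, had 382, 526 and 476 in wild type and 413, 481 and 466 in LacZ/LacZ. The 4 border macrophage markers summed to 474 to 661 in wild type and 568 to 655 in LacZ/LacZ. The border macrophage markers Lyve1, Cd163 and Pf4 are not in the table. Among the 4 astrocyte markers, the glutamate transporter Slc1a3 was at 197, 236 and 256 in wild type and 131, 176 and 166 in LacZ/LacZ (limma adjusted p = 0.24). Its relative Slc1a2 was at 15.2, 8.58 and 3.83 in wild type and 16.7, 13.6 and 21.3 in LacZ/LacZ (log2 change 0.98 ± 0.43 SE, limma adjusted p = 0.616), and the matricellular protein Sparcl1 at 9.69, 6.70 and 11.3 in wild type and 11.5, 11.6 and 41.6 in LacZ/LacZ (log2 change 0.91 ± 0.45 SE, limma adjusted p = 0.682). All astrocyte markers but Slc1a3 are in the table only through the LacZ/LacZ libraries, and the 4 summed to 233 to 277 in wild type and 177 to 247 in LacZ/LacZ. In sorted bulk samples, more or fewer cells of a type and more or less RNA per cell cannot be told apart. The part of endothelial and choroid plexus RNA in the calls of Itm2a, Cldn5, Slco1c1 and Enpp2 was not tested.

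**Figure D3:**
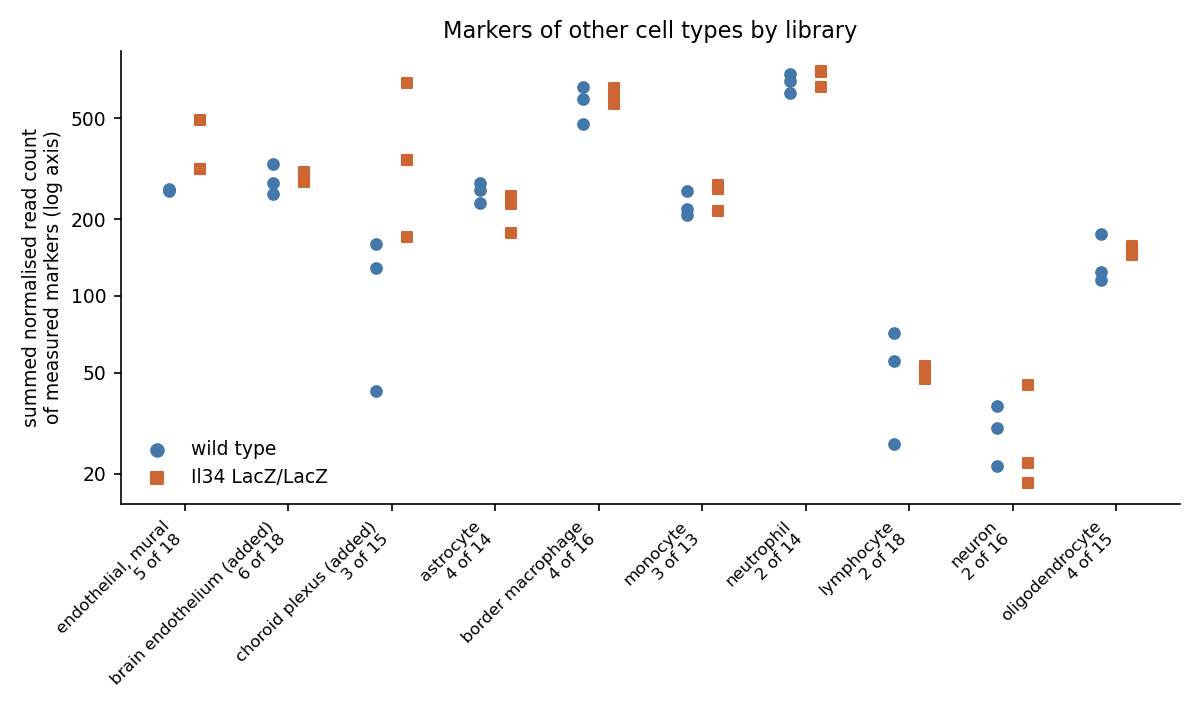
Summed normalised read count (log axis) of the measured markers of 10 lists in each library, with the number measured of the number listed under each name; the 2 lists marked as added were written after the data were seen. The endothelial and mural sum and the choroid plexus sum are higher in every LacZ/LacZ library than in every wild-type library, but overlap once the called genes Itm2a and Cldn5, or Enpp2, are taken out; in the other 8 lists the groups overlap.

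The receptor axis itself showed no call. Csf1r had 9431, 10871 and 10856 in wild type and 8834, 10139.5 and 10139 in LacZ/LacZ (log2 change -0.10 ± 0.12 SE, limma adjusted p = 0.917; 95% interval -0.34 to 0.14). Csf1, the other ligand, was read at low level in microglia, at 12.4, 12.4 and 5.70 in wild type and 17.8, 25.1 and 25.2 in LacZ/LacZ. All LacZ/LacZ libraries were above all wild-type libraries, but the change missed the threshold (log2 change 1.14 ± 0.39 SE, limma adjusted p = 0.373). Csf1 is in the table only through the LacZ/LacZ libraries. The receptor Trem2 and its adaptor Tyrobp, which signal beside CSF1R, were at log2 changes of -0.08 and -0.09 (adjusted p = 0.94 and 0.939). Of 28 genes of CSF1R signalling, 26 were measured and 0 were called in limma or edgeR. Unadjusted, 1 was under 0.05, against 7.38% of all genes. In this list 8 changes were positive and 18 negative, against 48.7% positive among all genes. The list median was -0.11 (-0.06 without wild type 3 and -0.07 without LacZ/LacZ 1), against -0.01 for all genes. The lipid phosphatase Inpp5d had 597, 742 and 701 in wild type and 533, 606 and 627 in LacZ/LacZ. The kinase Lyn had 877, 1007 and 1022 in wild type and 885, 907 and 931 in LacZ/LacZ, and in both genes the groups overlapped.

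Genes of the homeostatic program, which marks microglia of the healthy brain, were mostly on the low side in LacZ/LacZ. Of 35 listed, 34 were measured, and 1 of them, Slc2a5, passed in limma, as described above. Of the 34 changes, 30 were negative and 4 positive, with a median of -0.15 against -0.01 for all genes, of which 48.7% were positive; under quantile normalization 23 were negative and 11 positive (median -0.08). Unadjusted, 12 were under 0.05, all of them lower, against 3.7% of all genes in that direction. Beside Slc2a5, edgeR called P2ry12 and C1qc.

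P2ry12, the receptor that steers microglial processes to ATP and ADP, had 5765, 5895 and 7464 in wild type and 4282, 4969 and 4509 in LacZ/LacZ. Every LacZ/LacZ library was below every wild-type library (log2 change -0.47 ± 0.12 SE, limma adjusted p = 0.131; edgeR adjusted p = 0.0325, DESeq2 0.0972). Tmem119, a membrane protein used to mark microglia, had 2899, 2963 and 3343 in wild type and 2283, 2443 and 2468 in LacZ/LacZ (adjusted p = 0.29). Olfml3, a secreted matrix protein, had 1948, 2191 and 1939 in wild type and 1575, 1512 and 1565 in LacZ/LacZ (0.228). Sparc, a matricellular protein, had 2046, 2422 and 2426 in wild type and 1839, 1729 and 1746 in LacZ/LacZ (0.253). For these genes, chosen after their values were seen, the groups did not overlap and the limma test did not pass.

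Crybb1, a crystallin gene that microglia express, had 63.1, 82.1 and 94.3 in wild type and 30.3, 40.5 and 51.3 in LacZ/LacZ (log2 change -0.97 ± 0.25 SE, limma adjusted p = 0.115). Cst3, the secreted protease inhibitor cystatin C, had 14404, 15139 and 16816 in wild type and 12956, 11787 and 13304 in LacZ/LacZ (adjusted p = 0.559), with no overlap for either gene. For other defining genes the groups overlapped. The fractalkine receptor Cx3cr1 had 4543, 5402 and 5766 in wild type and 4662, 5357 and 5051 in LacZ/LacZ (log2 change -0.06, and 0.20 under quantile normalization). The transcription factor Sall1 had 466, 499.6 and 554 in wild type and 475, 439 and 491 in LacZ/LacZ (-0.11), and the lectin Siglech had 1424, 1564 and 1524 in wild type and 1308, 1425 and 1297 in LacZ/LacZ (-0.16).

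The 3 chains of C1q, the starter of the classical complement pathway, did not run together. C1qa had 1779.8, 1821 and 1885 in wild type and 1644, 1684 and 1813 in LacZ/LacZ (adjusted p = 0.917). C1qb had 3365, 3913 and 3619.5 in wild type and 3537, 3323 and 3684 in LacZ/LacZ (0.968). C1qc had 2121, 2210.2 and 977 in wild type and 982, 715 and 1005 in LacZ/LacZ. Wild type 1 and 2 were more than 2-fold above every LacZ/LacZ library, but wild type 3 lay within the LacZ/LacZ range (log2 change -0.90 ± 0.20 SE, limma adjusted p = 0.0664; edgeR 0.0111, DESeq2 0.768). Wild type 3 was likewise the lowest wild-type library for Vapa and for 3 further genes picked after their values were seen. The autophagy protein Uvrag had 72.7, 72.7 and 29.02 in wild type and 20.9, 22.2 and 15.5 in LacZ/LacZ. The lysosomal membrane protein Lamp1 had 609.8, 562 and 248 in wild type and 404, 182 and 343 in LacZ/LacZ. The small GTPase Rac1 had 403, 352 and 222 in wild type and 186, 159 and 227 in LacZ/LacZ. In Lamp1 and Rac1, wild type 3 lay within the LacZ/LacZ range. Of 28 complement and phagocytosis genes, 22 were measured and 1, C3ar1, was called; 9 changes were positive and 13 negative (median -0.03, between -0.11 and -0.0022 with a library left out, and 0.02 under quantile normalization).

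Genes of the disease-associated program, which microglia take on near plaques, were mostly on the high side. Of 30 listed, 23 were measured, and 1, Apoe, was called. Of the 23 changes, 18 were positive and 5 negative, with a median of 0.27 (0.17 without wild type 1) against -0.01 for all genes. Unadjusted, 10 were under 0.05, all of them higher, against 3.68% of all genes in that direction. Itgax and Csf1, counted among them, are in the table only through the LacZ/LacZ libraries, so they could only be higher there. Igf1, among the negative changes, is in the table only through the wild-type libraries. Clec7a, the beta-glucan receptor dectin-1, had 15.2, 37.8 and 27.2 in wild type and 59.4, 81.9 and 53.2 in LacZ/LacZ (adjusted p = 0.0771). Lpl, lipoprotein lipase, had 26.1, 22.7 and 23.4 in wild type and 52.1, 59.8 and 52.2 in LacZ/LacZ (0.0771). All LacZ/LacZ libraries were above all wild-type libraries for both genes, without passing the test.

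The integrin Itgax had 2.84, 7.64 and 6.63 in wild type and 12.6, 26.1 and 12.6 in LacZ/LacZ (log2 change 1.44 ± 0.44 SE, limma adjusted p = 0.249). The receptor kinase Axl had 13.8, 16.1 and 18.8 in wild type and 27.1, 32.8 and 43.5 in LacZ/LacZ (log2 change 1.03 ± 0.33 SE, limma adjusted p = 0.297). The tetraspanin Cd63 had 137, 108 and 210.0 in wild type and 213, 243 and 254 in LacZ/LacZ (log2 change 0.69 ± 0.19 SE, limma adjusted p = 0.164). In each of these genes, chosen after their values were seen, the groups did not overlap. For Itgax, entry into the table rests on the LacZ/LacZ libraries alone. Cathepsin B, Ctsb, was at 2054, 2155 and 2519.7 in wild type and 2669, 2799.6 and 2833 in LacZ/LacZ (adjusted p = 0.447). The growth factor Igf1, another member of the program, was on the low side, at 31.6, 16.1 and 14.1 in wild type and 19.9, 10.7 and 6.86 in LacZ/LacZ, with overlapping groups (adjusted p = 0.748).

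Lipid efflux genes, which move cholesterol and phospholipid onto lipoproteins, held 1 call, Apoe. Of 18 listed, 16 were measured. In these, 10 changes were positive and 6 negative (median 0.17), against 48.7% positive and a median of -0.01 for all genes. The lipid exporter Abca1 had 282, 309 and 470.2 in wild type and 388, 427 and 447 in LacZ/LacZ (adjusted p = 0.729). Its relative Abcg1 had 381, 466 and 501 in wild type and 442, 489 and 467 in LacZ/LacZ (0.962). Their groups overlapped. Pltp, which transfers phospholipid between lipoproteins, had 65.9, 55.7 and 78.5 in wild type and 94.7, 93.4 and 110.1 in LacZ/LacZ and no overlap (0.385).

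Among NF-kB targets and cytokines, 25 of 32 were measured. Limma called 0 and edgeR 1, where edgeR called 0.383% of all genes. Unadjusted, 5 were under 0.05, all higher, against 3.68% of all genes in that direction. The changes were positive in 20 and negative in 5 (median 0.22), against 48.7% positive and a median of -0.01 for all genes. Without wild type 1 the changes of the list were positive in 16 and negative in 9 (median 0.13). Ccl3, a chemokine that attracts leukocytes, had 86.4, 77.4 and 127 in wild type and 99.9, 326 and 390.0 in LacZ/LacZ. LacZ/LacZ 2 and 3 were far above wild type and LacZ/LacZ 1 was not (log2 change 1.29 ± 0.30 SE, limma adjusted p = 0.0771; edgeR 0.00783, DESeq2 0.675). The related Ccl4 had 24.8, 37.8 and 62.6 in wild type and 44.8, 108 and 155 in LacZ/LacZ, again with LacZ/LacZ 2 and 3 the highest (0.186). Nfkbiz, a nuclear regulator of NF-kB, had 26.1, 30.3 and 69.1 in wild type and 70.8, 85.7 and 86.97 in LacZ/LacZ, with no overlap (0.139).

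Immediate early and heat shock genes, which respond to cell handling, are given beside these chemokines. Of 30 listed, 19 were measured and 0 were called. Unadjusted, 5 were under 0.05, all higher, against 3.68% of all genes in that direction. The median was 0.26, against -0.01 for all genes. The list median became 0.06 without wild type 1, 0.08 without wild type 2, 0.14 without LacZ/LacZ 3 and 0.51 without wild type 3. Fos had 239.9, 177 and 375 in wild type and 381, 369.6 and 483 in LacZ/LacZ (adjusted p = 0.157). Egr1 had 292, 149 and 415 in wild type and 301, 523 and 574 in LacZ/LacZ (0.29). Junb had 641, 553 and 1035 in wild type and 771, 1122 and 1237 in LacZ/LacZ (0.385). The groups overlapped in all 3 genes. Their part in the chemokine values was not tested.

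**Figure D4:**
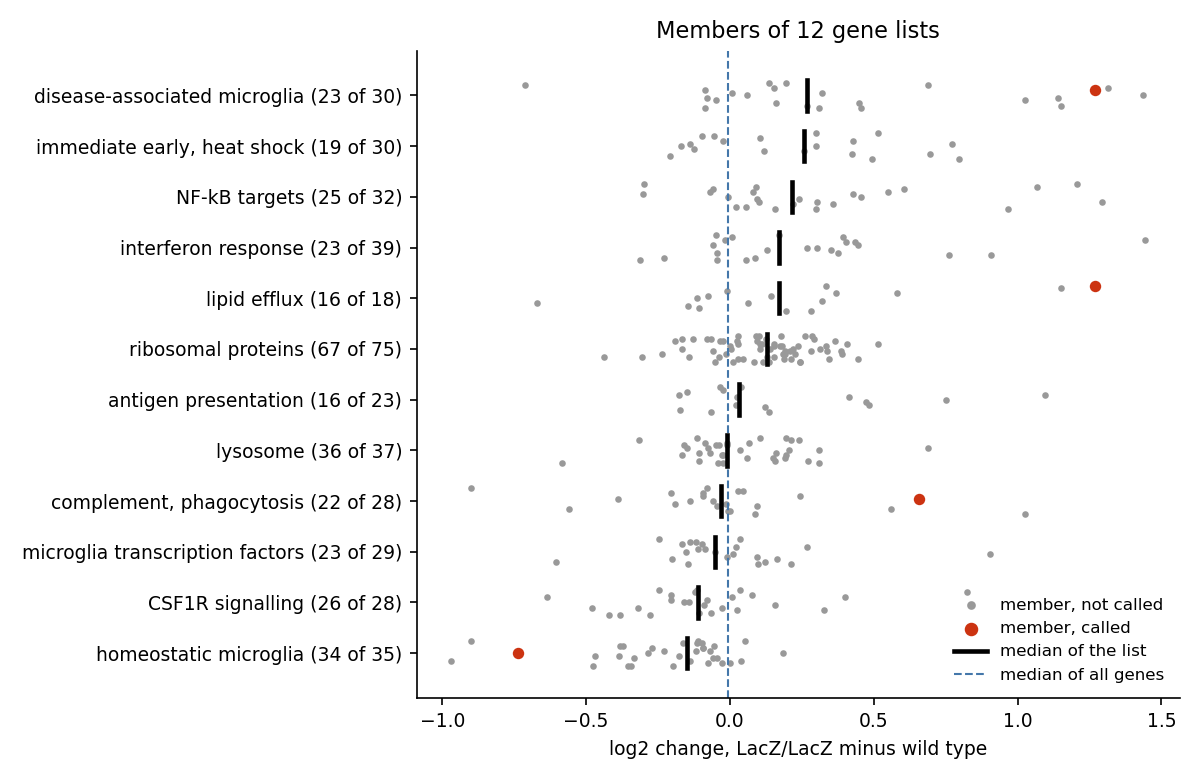
Log2 changes (LacZ/LacZ minus wild type) of the measured members of 12 gene lists, with the number measured of the number listed; black bars are list medians and the dashed line is the median of all genes. The homeostatic list sits lowest (median -0.15) and the disease-associated list highest (0.27), and only Slc2a5, C3ar1 and Apoe (shown in 2 lists) are called in limma.

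Beyond the 15 calls of limma, edgeR on the recovered reads called 18 further genes, 33 in all (0.383%), and these are given as calls of that test alone. Of the 18, 9 were higher and 9 lower, voom with quality weights also called 15 and DESeq2 3. The 3 that DESeq2 shared were Uvrag, Lsp1 and H2-K1. Lsp1, a leukocyte actin-binding protein, had 63.1, 51.9 and 46.7 in wild type and 131, 88.6 and 102 in LacZ/LacZ (limma adjusted p = 0.0578). H2-K1, a class I antigen-presenting chain whose reads are hard to tell from those of its close relatives, had 123, 130.2 and 176 in wild type and 215, 246 and 258 in LacZ/LacZ (0.0578). Il7r, the interleukin-7 receptor, had 48.1, 75.5 and 54.2 in wild type and 26.1, 27.05 and 19.4 in LacZ/LacZ (0.073). In none of these 3 genes did the groups overlap.

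The activation marker Cd83 had 185, 302 and 212 in wild type and 332, 353 and 437 in LacZ/LacZ (edgeR adjusted p = 0.0482). The adhesion molecule Cadm1 had 145, 131 and 157 in wild type and 203, 236 and 244 in LacZ/LacZ (0.0388). The intermediate filament gene Vim had 4.21, 3.87 and 1.97 in wild type and 10.5, 20.3 and 12.6 in LacZ/LacZ (0.0388). These genes and the sorting nexin Snx33, at 6.95, 1.04 and 2.90 in wild type and 20.9, 11.6 and 16.5 in LacZ/LacZ (0.0374), were on the high side. Vim and Snx33 are in the table only through the LacZ/LacZ libraries. On the low side, the phosphatase Ubash3b had 201, 173 and 190.4 in wild type and 122, 109 and 115 in LacZ/LacZ (0.0388). The sialomucin Cd164 had 696, 789 and 946 in wild type and 489.8, 636 and 493 in LacZ/LacZ (0.0374). Fam49b, a regulator of Rac1, had 285, 301 and 186 in wild type and 156, 112 and 166 in LacZ/LacZ (0.036). Pigk, a subunit of the enzyme that attaches GPI anchors, and Fchsd2, a membrane-trafficking protein, were at limma log2 changes of -0.80 and -0.64.

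Whether the effect of Il34 loss differs between regions was asked with the cerebellum of the same mutant. No gene passed the test of the difference (0 of 8367 in limma and in edgeR, 0%; 419 and 431 unadjusted), where the cerebellar arms hold 2 libraries each. Of the 15 forebrain calls, 13 were measured there, and 11 had the same sign, against 50.7% of all genes. Itm2a and Enpp2, in the forebrain table only through LacZ/LacZ, each had a cerebellar wild-type library below the level of that table's filter. If the cerebellar table was filtered alike, the filter favoured a higher LacZ/LacZ value for both genes in both regions. The count of shared signs is limited by this. The 2 comparisons share no library.

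Side by side, Apoe changed by 1.27 in forebrain and by 0.12 ± 0.34 (SE) in cerebellum, where it was at 786 and 1204 in wild type and 1080.0 and 1039 in LacZ/LacZ (difference 1.15 ± 0.33, limma adjusted p = 0.897). Ptchd1 changed by 1.71 and 0.58 ± 0.28, and was at 111 and 148 in cerebellar wild type against 199 and 184 in LacZ/LacZ (adjusted p of the difference 0.897). Upk1b was low in cerebellum in both genotypes, at 20.1 and 22.3 in wild type and 15.3 and 17.1 in LacZ/LacZ; the tables were normalised separately, so this level is not compared with that of the forebrain. Ly9, Myo5a and Neat1 changed by 0.41 ± 0.36, 0.23 ± 0.32 and 0.28 ± 0.30 in cerebellum, and C3ar1, Slc2a5 and Gal3st4 by -0.07 ± 0.28, -0.17 ± 0.30 and -0.46 ± 0.31.

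The genes of other cells were uneven in cerebellum too. Enpp2 was at 5.95 and 12.3 in wild type and 189.7 and 45.4 in LacZ/LacZ, and LacZ/LacZ 1 was by far the highest. Itm2a was at 5.95 and 35.6 in wild type and 135 and 14.3 in LacZ/LacZ, again with LacZ/LacZ 1 the highest, and the groups overlapped. Limma called 2 of 9466 genes in that table (0.0211%): Ttr, with means of 349.6 in LacZ/LacZ and 3.57 in wild type (adjusted p = 9.44e-05), and Cd209a, a lectin of myeloid cells, with 96.1 and 1.49 (0.0103). Both wild-type means were below the level of the filter described for the forebrain table. If the cerebellar table was filtered alike, Ttr and Cd209a are in it only through the LacZ/LacZ libraries and could only be higher there. Without cerebellar LacZ/LacZ 2, the difference between regions was called in 62 genes, with LacZ/LacZ 1 then the lone mutant library, assumed to vary like the others.

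Loss of the other ligand in the same region was set beside it. In the NesCre Csf1fl/fl forebrain, limma called 0 of 9424 genes (0%; 399 unadjusted). The difference between the Il34 and the Csf1 effect passed for 1 of 8227 genes (0.0122%), Itm2a, in limma, with a difference of 4.36 ± 0.64 (SE, adjusted p = 0.00141); 561 genes were under 0.05 unadjusted, and edgeR also called 1 gene. Itm2a was at 52.96, 48.2 and 77.8 in Csf1fl/fl controls and 66.2, 32.5, 58.1 and 12.5 in NesCre Csf1fl/fl, so it was read in every library of that table. Cldn5 and Slco1c1 changed by -0.60 ± 0.39 and -1.26 ± 0.59 in the Csf1 mutant (adjusted p of each difference 0.0721).

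Of the 15 forebrain calls, 13 were measured in the Csf1 table, and 8 had the same sign, against 50% of all genes; 0 libraries are shared. Apoe changed by 0.29 ± 0.14 there, from 947, 1193 and 1158 in controls to 1701, 1125, 1516 and 1111 in mutants (difference from the Il34 effect 0.98 ± 0.23, adjusted p = 0.276). Ptchd1 changed by 0.21 ± 0.23 (difference 1.51 ± 0.32, 0.103) and Upk1b by -0.34 ± 0.17 (difference -1.07 ± 0.27, 0.276). Slc2a5 and C3ar1 changed by -0.19 ± 0.10 and 0.17 ± 0.10, in each case less than in the Il34 mutant, whose test picked these genes (adjusted p of each difference 0.495). Ly9 and Myo5a changed by 0.58 ± 0.28 and 0.31 ± 0.32, Neat1 by -0.06 ± 0.17, Gal3st4 by -0.04 ± 0.10 and Vapa by 0.18 ± 0.27. Among these genes the test of the difference passed for none.

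**Figure D5:**
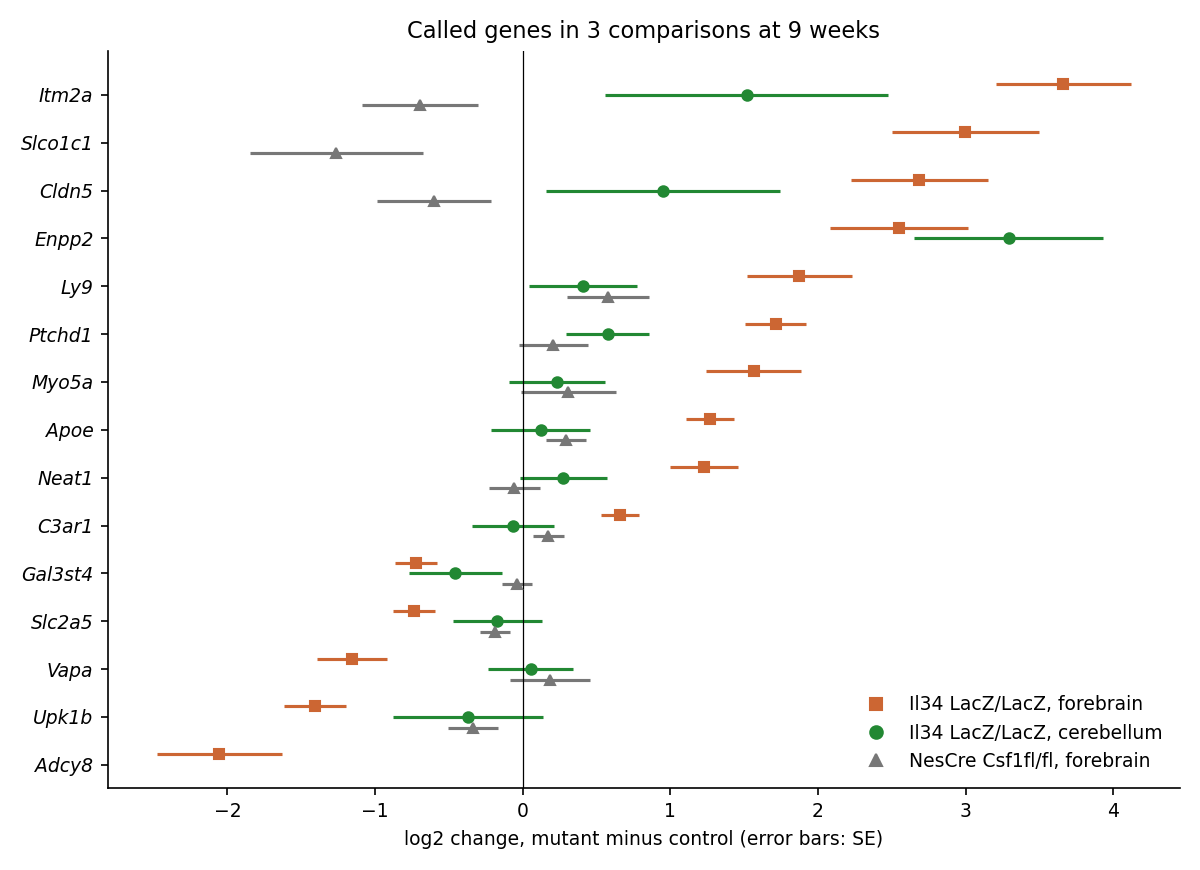
Log2 change (mutant minus control) with its SE for the 15 called genes in the Il34 forebrain (squares), the Il34 cerebellum (circles) and the Csf1 forebrain (triangles) at 9 weeks; a missing symbol means the gene is not in that table. Itm2a, Slco1c1 and Cldn5 are positive in the Il34 forebrain and negative in the Csf1 forebrain, and Enpp2 is the 1 gene whose cerebellar change is the larger. The 15 genes were picked by the test in the Il34 forebrain, and that choice by itself favours larger changes there.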

How the data were processed

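RNA of primary microglia, sorted by flow cytometry, was sequenced from ultra-low-input libraries. STAR 2.5.3, featureCounts and the mm10 build are named in the submitters' processing notes, without a strand setting, an annotation release or the normalization step. What the authors deposited is a normalised signal for each gene, and in every library used, 100% of values are whole read counts times 1 factor plus 0.1, within 0.01 reads. The design assumed normalized values. Each of the 8622 genes exceeds 10 in every library of one genotype or the other, so genes low in both were not analysed here; 15 names damaged into dates were kept in fits and left unnamed.

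The test was limma-trend on log2(value + 1) (limma 3.58.1, R 4.3.3), 2 groups, no covariate, two-sided, Benjamini-Hochberg over all genes, threshold 0.05; log2 changes understate low genes. Differences of effects came from 1 limma fit of 4 group means over the genes both tables hold. Alternatives were quantile normalization, a mean of at least 50, a pseudocount of 0.1, edgeR 4.0.16 (quasi-likelihood, TMM) and DESeq2 1.42.0 on recovered reads, voom with quality weights, a replicate block and each library left out. The fit was tested on simulated data with 50 changed genes at each fold. It recovered 8% of 1.5-fold, 48% of 2-fold, 94% of 4-fold and 100% of 8-fold changes. Of its 133 calls, 8 were false. Counting intervals are exact binomial at 95% and cover counting error only.

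Of 29 gene lists, members were counted; 2 lists were added later. Lists and members were chosen with earlier results of these data known. Named genes are Csf1 and Csf1r, calls with a mean of at least 20 and no overlap, up to 6 called members or 3 highest members per list, the leading genes of each difference and the 5 highest calls per direction; all other genes named were chosen after their values were seen. Some genes that the rule names are not reported here. Positions and overlaps are from GENCODE vM21 (GRCm38, the assembly of mm10; 95.5% of names found), promoters from RefSeq.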

Additional observations from a re-analysis of the deposited data

Results flagged for a closer look

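Itm2a was the 1 gene whose change differed between the loss of Il34 and the loss of Csf1 in forebrain by the test of the difference: the Il34 change minus the Csf1 change was 4.36 on the log2 scale (limma adjusted p = 0.00141). It was higher in 3 of 3 LacZ/LacZ libraries than in any wild-type library, and the means in the Csf1 table were 42.3 in mutants and 59.6 in controls. The level in the Il34 wild-type libraries rests on 5 reads in all. Itm2a is in the Il34 forebrain table only through the LacZ/LacZ libraries. Cldn5 and Slco1c1, the other endothelial genes called, differed by 3.29 ± 0.66 and 4.26 ± 0.85 without passing.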

How the results depend on the processing

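The count of calls moved with the test: 15 in limma became 8 of 3490 genes with a mean of at least 50, 33 in edgeR, 47 with voom, 18 under quantile normalization, 16 in DESeq2 and 15 with a pseudocount of 0.1. Leaving out 1 library gave 6 to 46 calls: 28 without wild type 1, 7 without wild type 2, 46 without wild type 3, and 11, 6 and 6 without LacZ/LacZ 1, 2 and 3. Ptchd1, Apoe, Upk1b and Itm2a kept their calls wherever they were tested. The lists holding at least 1 call, of 29, numbered 5 in limma, 8 in edgeR, 10 with voom, 12 with a replicate block and 3 to 12 with a library left out. No label ties equal replicate numbers together, and same-numbered deviations correlated at 0.15, -0.013 and 0.059. Of 6 libraries, 3 correlated best with their own number. With so few libraries this check cannot exclude pairing. The replicate block gave 79 calls, including all 15, and 13 calls for the difference between ligands. That difference had 10 calls from separate fits and 1 to 9 with a library left out, with 9 without wild type 3, 4 without Csf1fl/fl 1, 3 each without LacZ/LacZ 1 or NesCre 1, and 2 without NesCre 3. The difference between regions had 0 to 62, and 62 only without cerebellar LacZ/LacZ 2. Under quantile normalization the log2 changes of C1qa (0.062), C1qb (0.045), Ctsd (0.028) and Cx3cr1 (0.20) turned positive, all uncalled. Signs of uncalled changes also turned with a library left out, over ranges of -0.053 to 0.14 for Abcg1, -0.10 to 0.0090 for C1qb, -0.19 to 0.032 for Ctsd, -0.15 to 0.018 for Cx3cr1, -0.30 to 0.56 for Kdr, -0.075 to 0.48 for Pecam1, -0.26 to 0.28 for Prlr and -0.14 to 0.085 for Stab1, and for the differences between regions of Enpp2 (-1.76 to 0.28) and Gal3st4 (-0.64 to 0.11). The cause was not tested in any of these. Depth limits the low genes: Itm2a, Slco1c1 and Adcy8 rest on 5, 4 and 10 reads in their lower group.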

Other observations

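Outside the lists described above, limma called 0 genes in each of the lists that follow. Over all genes, 48.7% of changes were positive, with a median of -0.0079. Under 0.05 unadjusted, 3.68% of all genes were higher and 3.7% lower. Of 75 ribosomal protein genes, 67 were measured, with 50 positive and 17 negative changes, a median of 0.13 and 0 under 0.05 unadjusted. These genes share reads with many pseudogenes, so their levels are uncertain. Rpl3 had 415, 395 and 342 in wild type and 427, 462 and 440.2 in LacZ/LacZ, Rps4x had 354, 358 and 424 in wild type and 370.2, 461 and 412 in LacZ/LacZ, and Rpl10 had 344, 364 and 397 in wild type and 397, 366 and 406 in LacZ/LacZ. Interferon response genes were 23 of 39 measured, 16 positive and 7 negative (median 0.17, and 0.29 without LacZ/LacZ 2), 2 under 0.05 unadjusted, both higher. These 2, Oasl2 and Sp100, are in the table only through the LacZ/LacZ libraries, so they could only be higher there. The antiviral Oasl2 was at 13.8, 1.98 and 2.90 in wild type and 12.6, 13.6 and 16.5 in LacZ/LacZ (limma adjusted p = 0.373), with wild type 1 within the LacZ/LacZ range.

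Antigen presentation genes were 16 of 23 measured (10 positive, 6 negative, median 0.03), with H2-K1 called in edgeR. Microglial transcription factors were 23 of 29 measured (10 positive, 13 negative, median -0.05), and lysosomal genes 36 of 37 (17 positive, 19 negative, median -0.01, and 0.06 under quantile normalization). TGF-beta signalling had 16 of 23 measured (9 positive, 7 negative, median 0.02). Survival and apoptosis had 21 of 27 (10 and 11, -0.01), cholesterol synthesis 13 of 21 (5 and 8, -0.06), and glycolysis and hypoxia 17 of 22 (8 and 9, -0.0055). Nuclear oxidative phosphorylation had 32 of 40 (17 and 15, 0.02), the cell cycle 19 of 35 (9 and 10, -0.0093), and autophagy and mTOR 23 of 26 (9 and 14, -0.07), with Uvrag called in edgeR. With a library left out, the medians of these 10 lists lay between -0.12 and 0.17, and for all but antigen presentation they took both signs.

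Cdc7, a kinase that starts DNA replication, had the most negative log2 change of all genes, at 34.4, 33.1 and 16.9 in wild type and 4.26, 0.1 and 12.6 in LacZ/LacZ (log2 change -2.70 ± 0.59 SE, limma adjusted p = 0.0578), and did not pass. The groups did not overlap, and LacZ/LacZ 2 held 0 reads. Cdc7 is in the table only through the wild-type libraries. It was chosen after its values were seen.

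The smallest p of the difference between regions belonged to genes that did not pass after adjustment. Kdm1b, a histone demethylase, had 68.6, 66.1 and 82.2 in wild type and 42.7, 43.4 and 48.4 in LacZ/LacZ in forebrain and means of 75.6 in cerebellar LacZ/LacZ against 37.2 in wild type (difference -1.68 ± 0.35, limma adjusted p = 0.897). Trmt12 and Fam115a differed by 2.30 ± 0.56 and 2.32 ± 0.60, Cadm1 by 0.99 ± 0.26, and Rac1 and Fam49b by -1.40 ± 0.34 and -1.30 ± 0.33, at the same adjusted p. Against the Csf1 effect, Gal3st4, Capn10 and Ltbr had the smallest p on the lower side (differences -0.68 ± 0.16, -2.34 ± 0.57 and -1.32 ± 0.32, adjusted p = 0.276 for each). Capn10 is in the Il34 forebrain table only through the wild-type libraries.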
